A study of Caenorhabditis elegans with 2 samples.

Results

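Peaks of ATFS-1 chromatin were examined at 5 genes for the ATP-dependent proteases of mitochondria, among them spg-7, the gene silenced in every worm of the study. The genes were chosen by name (spg-7, ymel-1 under its current name or the older name yme-1, ppgn-1, lonp-1 and clpp-1), and a peak was counted for a gene when the authors' list of 1005 peaks carried that name. Of these peaks 3 met the rule, 1 each at spg-7, yme-1 and ppgn-1, and lonp-1 and clpp-1 had no row. Chromatin came from lysates of whole wild-type Caenorhabditis elegans that were raised from eggs under RNAi of spg-7 and collected as L4 larvae at about 48 h. It was fixed with 11% formaldehyde and sheared to 500 to 1000 bp. The precipitated sample, with ATFS-1 antibody, gave 1 library (10992796 tags after removal of duplicates, 40.0% of tags removed), and the sample without antibody, from worms of the same genotype under the same RNAi, gave 1 library (10583049 tags, 20.3% removed). Each condition therefore has 1 library and no replicate, no p-value is given, and the differences between the libraries have no replicate check. Per the file headers the reads lay in a separate project folder for each library, so project and antibody cannot be told apart. Whole-worm chromatin mixes all tissues, and the extent of spg-7 silencing was not measured here.

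ATFS-1 is the bZIP transcription factor of the worm's mitochondrial unfolded protein response (UPRmt): it is imported into healthy mitochondria and degraded there, and it goes to the nucleus when import is impaired. The proteases clear damaged proteins inside the organelle. Those of the inner membrane belong to the AAA family of ATPases. They are the m-AAA protease, which faces the matrix, and the i-AAA protease YMEL-1, which faces the intermembrane space. In the worm the m-AAA protease is built from the subunits SPG-7 and PPGN-1. LONP-1, the Lon protease, and CLPP-1, the peptidase of the Clp protease, are soluble in the matrix. In worms, Lon is known to degrade imported ATFS-1, CLPP-1 acts in the signalling of the response, and loss of SPG-7 by RNAi is a standard way to switch the response on.

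The genes with a peak were those of the inner-membrane AAA proteases, and the 2 genes of matrix proteases had none. Of the 5 genes 3 (60%) were named at a peak, against a background of 4.53% of the 19971 protein-coding nuclear genes (904 genes). An older name was read for ymel-1 only, so other genes listed under outdated names may be missing from this background. With 5 genes, chosen with these results known, the share is a description of the list. At that background most genes have no peak, so its lack at the 2 matrix genes is no result about them.

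spg-7 (locus Y47G6A.10), the RNAi target and an m-AAA subunit, had a peak of 854 antibody tags (exact Poisson 95% interval 798 to 913, counting error only) on chromosome I, 3465746 to 3468451. Its fold enrichment, in which the peak caller divides the antibody signal by what the control leads it to expect, was 9.44. That placed it 16th of the 1005 peaks by fold, level with the cytochrome P450 gene cyp-33C8. The next peaks above were zk470.2, a gene listed by its locus name, at 9.56-fold and cyc-2.1, a cytochrome c gene, at 9.66-fold. It stood lower on the other measures, at rank 96 by tags, 47 by tags per kb and 42 by the caller's score, which is the negative log10 of its p-value times 10. RNAi in worms is commonly given as food bacteria whose plasmid holds a piece of the target gene, and worms of both libraries were under spg-7 RNAi. The part of plasmid DNA in the spg-7 peak was not tested, and control tags over single peaks were not used here.

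ppgn-1 (Y38F2AR.7), the other m-AAA subunit, had a peak of 326 tags (exact Poisson 95% interval 292 to 363) at 3.61-fold on chromosome IV, 2348259 to 2349708. It was an ordinary peak of the list: 62.9% of peaks had a lower fold, 8 peaks including ppgn-1 shared the value 3.61, and its tag count lay next to the median of all peaks, 325. The peak at atfs-1 itself, at 3.62-fold and 281 tags, was close in rank by fold (366 for ppgn-1 and 361 for atfs-1). The ranks of ppgn-1 and atfs-1 were 303 and 248 by tags per kb, 497 and 598 by tags, and 341 and 869 by score. Set side by side, spg-7 had 316 tags per kb and ppgn-1 225, a ratio of 1.4. Over the whole regions, which differ in length, the ratio of tags was 2.62.

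ymel-1 (M03C11.5), the i-AAA protease gene, listed under its older name, had the highest fold enrichment of the list, 13.08, with 728 tags (exact Poisson 95% interval 676 to 783) on chromosome III, 10415011 to 10416600. The next peak, at a gene with only a locus name, Y43F8B.2, had 12.28. By tags per kb the ymel-1 peak ranked 3, at 458, after the peak of hsp-60, the mitochondrial chaperonin, at 741 and the shared peak of gpd-2, mai-1 and gpd-3 at 471, and ahead of hsp-6, the mitochondrial HSP70, at 443. Tags per kb take no account of the control, and the hsp-60 peak ranked 304 by fold, at 3.79. By score the ymel-1 peak was 24th and by tags 141st. Tags are counted over the whole of a peak, and the part of peak length in these ranks was not tested.

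The ymel-1 peak was short for its fold. It spanned 1590 bp, close to the median of all peaks (1555 bp), yet it was the shortest of the 20 peaks with the highest fold, whose lengths ran to 9477 bp with a median of 3932 bp. The spg-7 peak spanned 2706 bp, with 3 of those 20 shorter, and the ppgn-1 peak 1450 bp. The summits lay near the middle of each peak, 860 bp from the start of the ymel-1 peak (54.1% of its length), 1139 bp at spg-7 (42.1%) and 826 bp at ppgn-1 (57.0%), within the quartiles of the list (40.6% and 61.5%). None of the 3 peaks carried the name of a second gene.

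**Figure D1:**
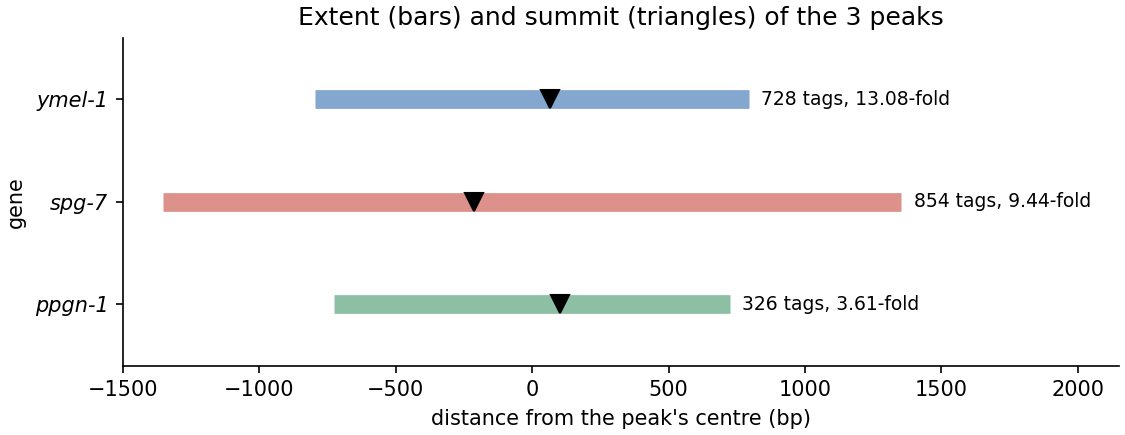
Extent of the peaks at ymel-1, spg-7 and ppgn-1 as bars, with the summit as a triangle, drawn in bp from each peak's centre in the direction of rising coordinates. The spg-7 peak is the longest at 2706 bp, and each summit lies nearer to the centre than to either end.

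**Figure D2:**
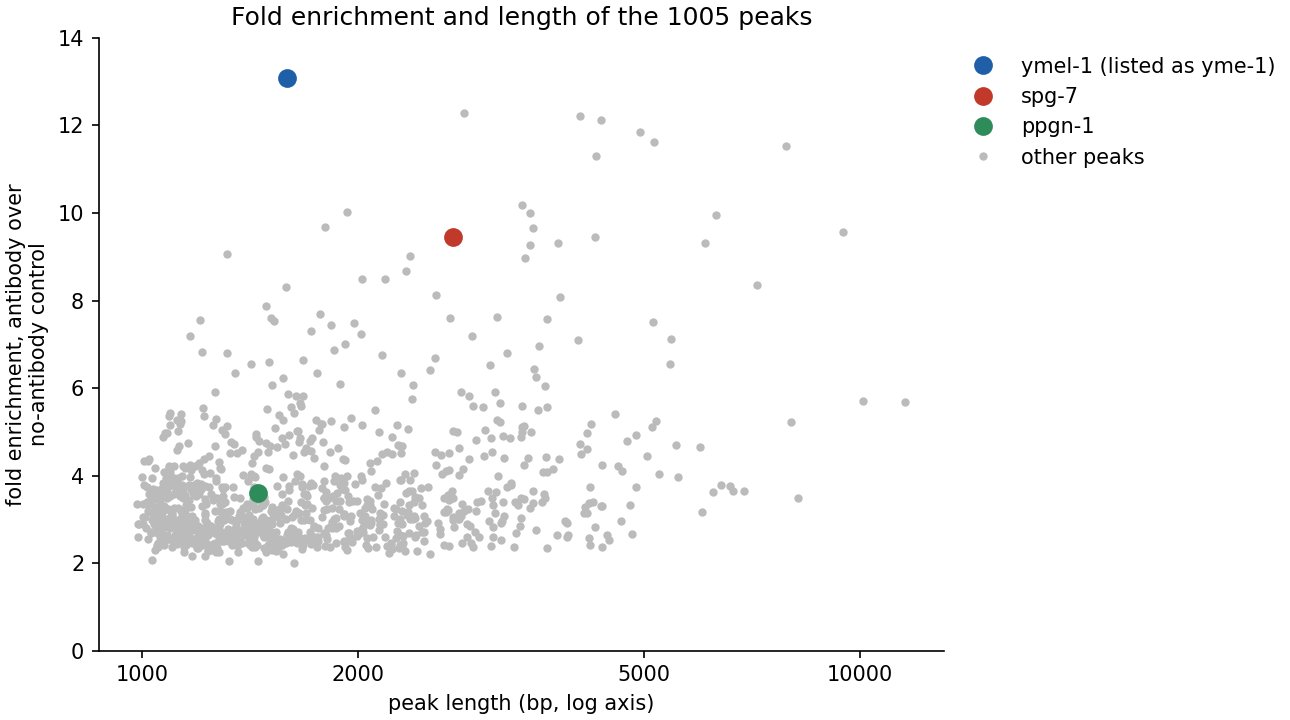
Fold enrichment against peak length (log axis) for the 1005 peaks, 1 point per peak, with the protease genes in colour. The ymel-1 peak stands alone at 13.08-fold and 1590 bp, spg-7 lies among the high-fold peaks, and ppgn-1 lies in the mass of the list.

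Peaks were also set against others of like score. Against the 20 peaks nearest in score (10 above and 10 below), the ymel-1 peak had the highest fold, the shortest length and the fewest tags of the 21. Score, fold and tags are drawn from the same counts, so at like score these traits are tied and are not separate results. Those 20 had a median fold of 7.34, a median length of 4056 bp and a median of 1363 tags. The spg-7 peak was exceeded in fold by 2 of its 20, whose median fold was 6.06, median length 3572 bp and median tags 1093. The ppgn-1 peak was exceeded by 10 of its 20, with a median fold of 3.53, so it lay in the middle.

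The caller's false discovery rate was 4% for ymel-1, 9.3% for spg-7 and 7.52% for ppgn-1. To obtain it, the caller repeats the calling with the control in the place of the ChIP sample and divides the peaks found that way by the peaks found in the real order, down to the score in question. Only ymel-1 was among the 32 peaks (3.18%) at a rate of 5% or less. spg-7 had a higher rate than 990 peaks although 41 of the 1005 scored better. The rate multiplied by the rank in score came to 0.96 for ymel-1, 3.91 for spg-7 and 25.6 for ppgn-1, which is about the number of swapped peaks, where the library without antibody exceeded the one with it, at that score or better. The 20 peaks nearest to spg-7 in score had rates from 2.78% to 11.1% with a median of 9.8%, so its rate was that of its score range. Around ymel-1 the median was 3.51%, and around ppgn-1 it was 7.54%.

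**Figure D3:**
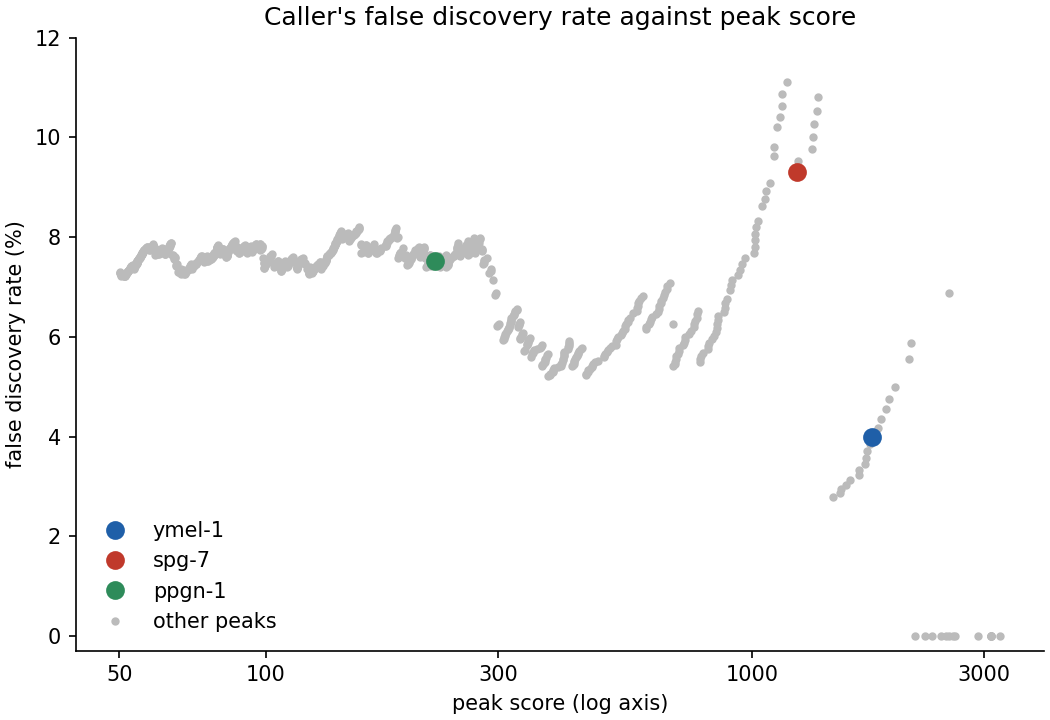
The caller's false discovery rate in percent against the peak score (log axis), 1 point per peak, with the protease genes in colour and hsp-60, which has no rate, left out. The rate runs in steps and does not fall steadily with the score: spg-7, at a score of 1237, lies on a ridge that reaches 11.1%, and ymel-1, at 1763, lies below 5%.

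Stricter limits on the peaks kept ymel-1 longest. All 3 had a fold at or above the list's median of 3.26, as 50.1% of peaks did. At a fold of at least 5, which 13.6% of peaks reached, ymel-1 and spg-7 remained. Counted over genes, 1 of the 5 proteases was named at a peak with a rate of 5% or less, against 0.15% of all protein-coding genes, and 2 of the 5 at a fold of at least 5, against 0.631%. All 3 were still named at peaks at or above the median fold (2.33% of all genes), at or above the median score (2.37%) and at peaks with 1 gene name (3.69%). The median fold of the 3 peaks was 9.44, and it was 8.35 without spg-7. If the older name were not read as ymel-1, the count would be 2 of 5 genes, against 4.52% of all genes, and the median 6.53.

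Surroundings of the peaks also differed. The ymel-1 peak had a listed peak close by. M03C11.3, a gene known by its locus name, had 6.86-fold and 591 tags (chromosome III, 10406337 to 10408188). The gap between them was 6822 bp, against a median of 59396 bp between neighbouring peaks of the list, and 122 of the 999 gaps were shorter. On the other side, 42.9 kb away, lay atx-2, the worm's ataxin-2 gene (4.68-fold, 510 tags). The spg-7 peak was isolated, with cogc-1, a Golgi complex gene (2.89-fold), 216 kb before it and T28F2.1 (2.38-fold) 170 kb after it, and 873 and 824 of the 999 gaps in the list were shorter. The ppgn-1 peak had vha-11 and vha-3, genes of the vacuolar proton pump, at a shared peak 30.8 kb before it (3.06-fold) and trap-3 38.3 kb after it (3.65-fold). Coordinates are those of the deposited list. The sources used here name no genome build for it, and the position of the peaks relative to promoters, exons and introns was not analysed here.

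Genes were also looked at through their neighbours in the gene order. Of the 50 protein-coding neighbours of the 5 proteases, 5 on either side of each, 5 (10%) were named at a peak, against 4.53% of all genes. They were 0 of 10 at spg-7, 1 of 10 at ymel-1 (M03C11.3) and 3 of 10 at ppgn-1 (vha-11, vha-3 and trap-3). Beside lonp-1 (C34B2.6, chromosome I), which has no row itself, 0 of 10 were named. Beside clpp-1 (ZK970.2, chromosome II), 1 of 10 was, vha-9, a proton pump gene 2 places away (2.36-fold, 327 tags, 10303384 to 10305299). No row carried the locus name of any of the 5 proteases. A gene without a row had no peak assigned to it, and a level under the caller's threshold was not measured.

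None of a list of 8 other protease and unfoldase genes had a peak, a share near the background of 4.53% of genes for so short a list and so no result about these genes. They were mppa-1 and mppb-1 (the processing peptidase that cuts off import signals), immp-1 and immp-2 (the inner-membrane peptidase), rom-5 (a rhomboid protease), lonp-2 (the peroxisomal Lon) and D2030.2 and K07A3.3 (ClpX-type unfoldases, partners of CLPP-1).

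Proteins that AAA proteases are known to bind or cut, in worms, yeast or mammals, were taken as a list of 8 genes. Most are proteins of the inner membrane. The list was chosen with earlier results of these data known, so its share is only a description. Of these genes 6 were named at a peak, against 4.53% of all genes. They were timm-23 (7.57-fold, 1174 tags) and timm-17B.1 (5.0-fold, 546 tags), parts of the import channel, atad-3, an inner-membrane ATPase (6.25-fold, 916 tags), stl-1, a stomatin-like scaffold (5.19-fold, 511 tags), and the prohibitins phb-1 (4.97-fold, 1021 tags, at a peak shared with Y37E3.8) and phb-2 (3.91-fold, 538 tags), which form a ring around the m-AAA protease. eat-3, the worm's OPA1, which i-AAA cuts in mammals, and mrpl-32, a ribosomal protein that m-AAA matures in yeast, had no row. The median fold of the 6 peaks was 5.10, lower than ymel-1 and spg-7 and higher than ppgn-1. All 6 lay between 3.91 and 7.57.

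Of 8 genes that carry or mark the UPRmt, 3 had a peak, against 4.53% of all genes: hsp-6 (11.85-fold, 2186 tags), hsp-60 (3.79-fold, 4741 tags) and atfs-1. This list too was chosen with earlier results of these data known, so its share is only a description. The hsp-60 peak is the 1 peak of the list without a false discovery rate. The peptide exporter haf-1, the cofactors ubl-5 and dve-1 and the chromatin factors lin-65 and met-2 had no row. ymel-1 and hsp-6 were both above 11-fold, but the ymel-1 peak was 1590 bp long, against 4940 bp at hsp-6, and had a false discovery rate of 4%, against 0% at hsp-6.

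**Figure D4:**
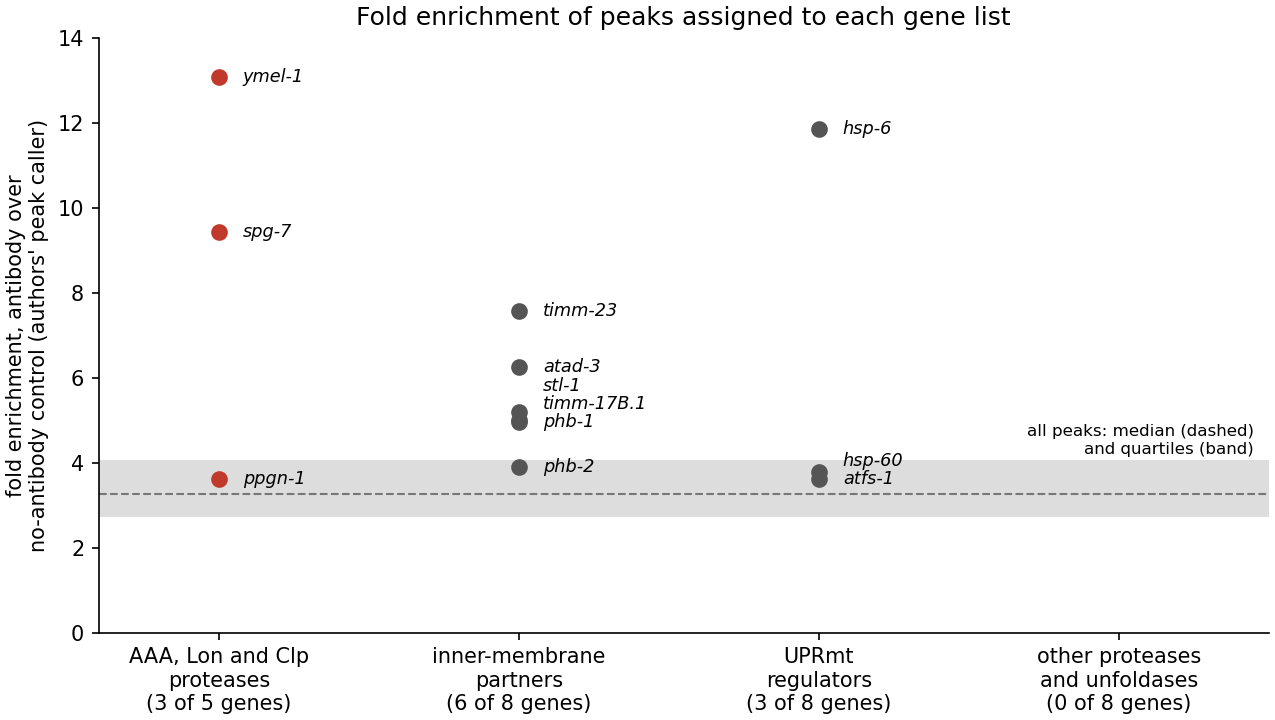
Fold enrichment of every peak assigned to the protease genes (left) and to 3 related gene lists, 1 point per gene with a peak, with labels moved apart where they would overlap; the dashed line and band are the median (3.26) and quartiles (2.75 and 4.04) of all 1005 peaks. ymel-1 and spg-7 lie above all 6 inner-membrane partners, and the list of other proteases and unfoldases has no point.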

How the data were processed

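The deposited table is a peak list made by the authors with MACS 1.4.2, which compared the library with antibody to that without, per the file headers. The headers also give 1 tag kept per position, peaks at p of 1e-05 or less, fragments of 200 bp, an effective genome of 90000000 bp and scaling of the larger library towards the smaller. The submitters' processing notes list BWA 0.7.5, Picard and MACS 1.4. Peaks were called on single libraries. The deposited tag counts are whole antibody tags per peak. The deposited fold is the caller's ratio, and the deposited false discovery rate is a percent. The deposited score lost its heading and was read from its column order and its minimum of 50.06. All are the authors' values.

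Names were split at "/", lower-cased and matched to symbols or locus names on the same chromosome in the RefSeq gene table (WBcel235), used for names and gene order, and all 5 protease genes matched. Ranks, lengths and gaps were computed with Python 3.11.15 and pandas 2.3.3, Poisson intervals with scipy 1.17.1, and the matching was tested on simulated data. Genes named in the text are the proteases, the genes of the other lists, nearest peaks and some of the planned neighbours by fold. Neighbours in gene order were named where a peak carried their name, and Y37E3.8 for the peak it shares with phb-1. hsp-60 and gpd-2 were named for tags per kb after their values were seen. The proteases and lists were chosen with earlier results of these data known. Depth is 1 library per condition. No sequence was used, so motifs and protein identity were not analysed here.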

Additional observations from a re-analysis of the deposited data

How the results depend on the processing

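No paired analysis was possible because the antibody and control samples are single libraries, and neither could be left out. At a false discovery rate no higher than 5%, 1 protease gene (ymel-1, fold 13.08), 1 inner-membrane partner and 1 UPRmt gene kept a peak. The rate of hsp-60 is blank, so it was not counted there, but the peaks just above and below it in score had rates above 5%. With a fold of at least 5, 2 proteases (median 11.26), 4 partners and 1 UPRmt gene did. The median was 6.53 with older names unmatched and 8.35 without spg-7. By tags, tags per kb and score instead of fold, ymel-1 ranked 141, 3 and 24 instead of 1, and spg-7 96, 47 and 42 instead of 16. Of the 50 neighbouring genes, 2 rather than 5 were named at or above the median fold (2.33% rather than 4.53% of all genes), a setting chosen after seeing the data. The other planned settings left counts within 1.5 times. Fewer peaks remain by construction, and one antibody library limits every value.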
